A study of Mus musculus with 24 samples.

Results

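Fatty acid oxidation and ketone body handling were followed through 30 genes in mouse epididymal white adipose tissue, the fat pad around the epididymis. The genes were listed by symbol from textbook roles and found on the arrays through the accession of each probe. All 30 had a probe, and 29 passed the detection filter among 21051 features tested (13014 named genes and 8037 probes without a gene name). The exception was Cyp4a14, whose single probe was well above background on 0 of 24 arrays. The mice were male C57BL/6JRcc animals, housed singly and 28 or 29 weeks old at tissue collection. Both groups ate the same semi-synthetic diet, with 40% of energy from fat and a low tryptophan content of 0.115%, and had 2 weeks on it with nicotinamide riboside (NR), a vitamin B3 compound from which cells make NAD. For the next 18 weeks the Ctrl NR diet held 30 mg of NR per kg and the No NR diet held 0 mg per kg, with 12 mice on each. Before death every mouse had a small meal of 0.8 g for the night and a meal of 1.8 g over the last 4 hours, so all tissues came from refed animals. The comparison asks whether these genes differ in fat when the vitamin B3 source is left out of the diet.

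Long-chain fatty acids enter mitochondria through the carnitine shuttle and are then shortened in cycles of beta-oxidation, each of which reduces FAD and NAD. Electrons from the FAD-linked dehydrogenases pass through electron transfer flavoprotein to the respiratory chain, while peroxisomes shorten the longest and branched chains. Ketone bodies are made mainly in liver from the acetyl-CoA of this pathway, and other tissues burn them through the enzyme encoded by Oxct1. The nuclear receptor PPAR alpha switches many of these genes on in fasting. White adipocytes oxidise little fat compared with liver, muscle or brown fat, and refeeding favours storage.

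Each array compared the Cy5-labelled RNA of 1 mouse with a common Cy3-labelled pool, so a value is a log2 ratio of mouse over pool, and 0 means the level of the pool. The pool also held samples of other diets and 4 females. Between 34.5% and 50.7% of spots were well above background in Cy5. Arrays lay on 5 slides, each scanned once, so slide and scan are 1 batch, and every slide held both diets. The adipocyte list was measured in full (22 of 22 genes, Adipoq and Lep on all 24 arrays), while of the skeletal muscle list 4 of 14 genes were measured: Acta1 and Pvalb were well above background on 24 arrays and Tnnc2 and Tnni2 on 23, and Ckm, Myh4 and Mylpf on 0. In the list for the adjoining epididymis and testis 4 of 17 genes were measured. RNA of whole tissue cannot tell fewer cells of a type from less RNA per cell. The mice are separate animals, so their spread covers animals and technique together.

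Promoters from RefSeq (GRCm38.p6) were at hand here for 25 of the 30 genes, 26 promoters in all. The 250 bases before the start of each were searched on both strands for the nuclear receptor half-site AGGTCA, which PPAR and ERR proteins can bind. It was present in 4 of the 26 promoters (15.4%), against 4607 of all 32851 promoters of that length. The 4 promoters are printed here because they belong to a gene of fatty acid entry, 2 acyl-CoA dehydrogenases and Ucp3, whose values are compared between mice later. Capitals mark AGGTCA or, for a match on the other strand, TGACCT.
Cpt1a, chr19:3323051-3323300, plus strand: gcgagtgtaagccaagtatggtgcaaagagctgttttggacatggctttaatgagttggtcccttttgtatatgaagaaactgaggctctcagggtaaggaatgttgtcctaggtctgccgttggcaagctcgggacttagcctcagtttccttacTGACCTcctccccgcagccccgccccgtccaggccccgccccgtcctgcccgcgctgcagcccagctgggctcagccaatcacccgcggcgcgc
Ucp3, chr7:100472741-100472990, plus strand: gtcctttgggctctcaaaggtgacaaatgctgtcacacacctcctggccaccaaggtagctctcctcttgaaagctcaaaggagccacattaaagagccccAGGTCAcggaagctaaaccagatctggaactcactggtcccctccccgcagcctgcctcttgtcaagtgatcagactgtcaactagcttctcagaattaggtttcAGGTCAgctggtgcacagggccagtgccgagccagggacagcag
Acadm, chr3:153944644-153944893, minus strand: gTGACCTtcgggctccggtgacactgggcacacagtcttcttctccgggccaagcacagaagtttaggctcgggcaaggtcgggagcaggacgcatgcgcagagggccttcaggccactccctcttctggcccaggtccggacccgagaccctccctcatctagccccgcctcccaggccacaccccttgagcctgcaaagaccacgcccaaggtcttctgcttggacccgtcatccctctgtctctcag
Acadvl, chr11:70015429-70015678, minus strand: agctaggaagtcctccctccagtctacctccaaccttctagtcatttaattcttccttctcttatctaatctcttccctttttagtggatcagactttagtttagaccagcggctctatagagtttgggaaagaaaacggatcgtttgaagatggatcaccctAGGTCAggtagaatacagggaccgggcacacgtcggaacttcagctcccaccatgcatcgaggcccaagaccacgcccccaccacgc
The match of Cpt1a lay 94 to 89 bases before the start and that of Acadvl 87 to 82 bases before it. The start used for Cpt1a lies inside the RefSeq span of that gene, which begins at base 3322326, so its window follows an earlier start. Ucp3 held 2 matches, at 149 to 144 and at 44 to 39 bases before its start, and the match of Acadm lay at the far end of the window.

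Longer motifs that contain the half-site were also searched. AGGTCA followed by a second AGGTCA with 1 base between, the direct repeat of PPAR, was in 0 of the 26 promoters and in 0.0335% of all. TCAAGGTCA, the ERR element, was in 0 of the 26 and in 0.387% of all. With shares this low over all promoters, 0 of 26 cannot set the members apart from other genes. Only exact matches within the window were searched. The GC box GGGCGG was in 15 of 26 promoters (57.7%) against 32.7% of all, and CCAAT in 11 (42.3%) against 33.8%. The TATA box TATAAA was in 0 of 26 against 12.4%. A match is a run of letters in this window and does not show binding. Hadha and Hadhb, which encode both subunits of the mitochondrial trifunctional protein, are neighbours on chromosome 5 and are read in opposite directions from 1 shared stretch. That stretch is printed as it lies before Hadhb, with its GC boxes in capitals, because the values of the pair are compared later.
Hadhb, chr5:30155003-30155252, plus strand: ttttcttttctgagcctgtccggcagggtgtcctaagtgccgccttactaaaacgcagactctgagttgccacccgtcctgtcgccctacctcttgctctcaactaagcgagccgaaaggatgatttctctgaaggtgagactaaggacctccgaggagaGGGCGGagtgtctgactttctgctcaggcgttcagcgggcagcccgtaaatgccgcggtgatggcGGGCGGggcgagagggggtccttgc

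Leaving NR out of the diet was not followed by a detected difference in any of the 29 genes. In limma with Benjamini-Hochberg adjustment, 0 of 29 passed an adjusted p of 0.05, as did 0% of all 21051 features. At an unadjusted p under 0.05 only Acaa2 passed, with a higher mean without NR, where 14.1% of all features passed (6.87% higher and 7.25% lower without NR), so the members' share of 1 in 29 was below the background, a difference that was not tested. The differences, No NR minus Ctrl NR in log2, ran from -0.19 for Hadh to 0.20 for Slc25a20. They were above 0 for 13 genes and below 0 for 16, and of all features 47.6% lay above and 52.4% below 0. Their median was -0.048, against -0.0064 over all features. The ranges of both diets overlapped for all 29 genes. In this fit no 95% interval reached below -0.58 (Acot1) or above 0.55 (Ucp3). With the authors' processed signals the estimate of Bdh1, near background, was -0.49. In simulated data on all 21051 features, with 200 of them changed, the test called 20% of differences of 0.25 and 86.8% of differences of 0.5 on the log2 scale. Most members had an SE above the median of 0.0811 over all features, up to 0.225 for Acot1. These shares may therefore be too high for the members. Direction depended on the scaling. With each array centred on its median in place of loess, 24 of 29 genes lay below 0 instead of 16, with a median of -0.12 against -0.056 for all features, and 264 features passed the unadjusted threshold (84 higher, 180 lower) in place of 2974 (1447 higher, 1527 lower). Without background correction that split was 1779 higher and 1199 lower.

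**Figure D1:**
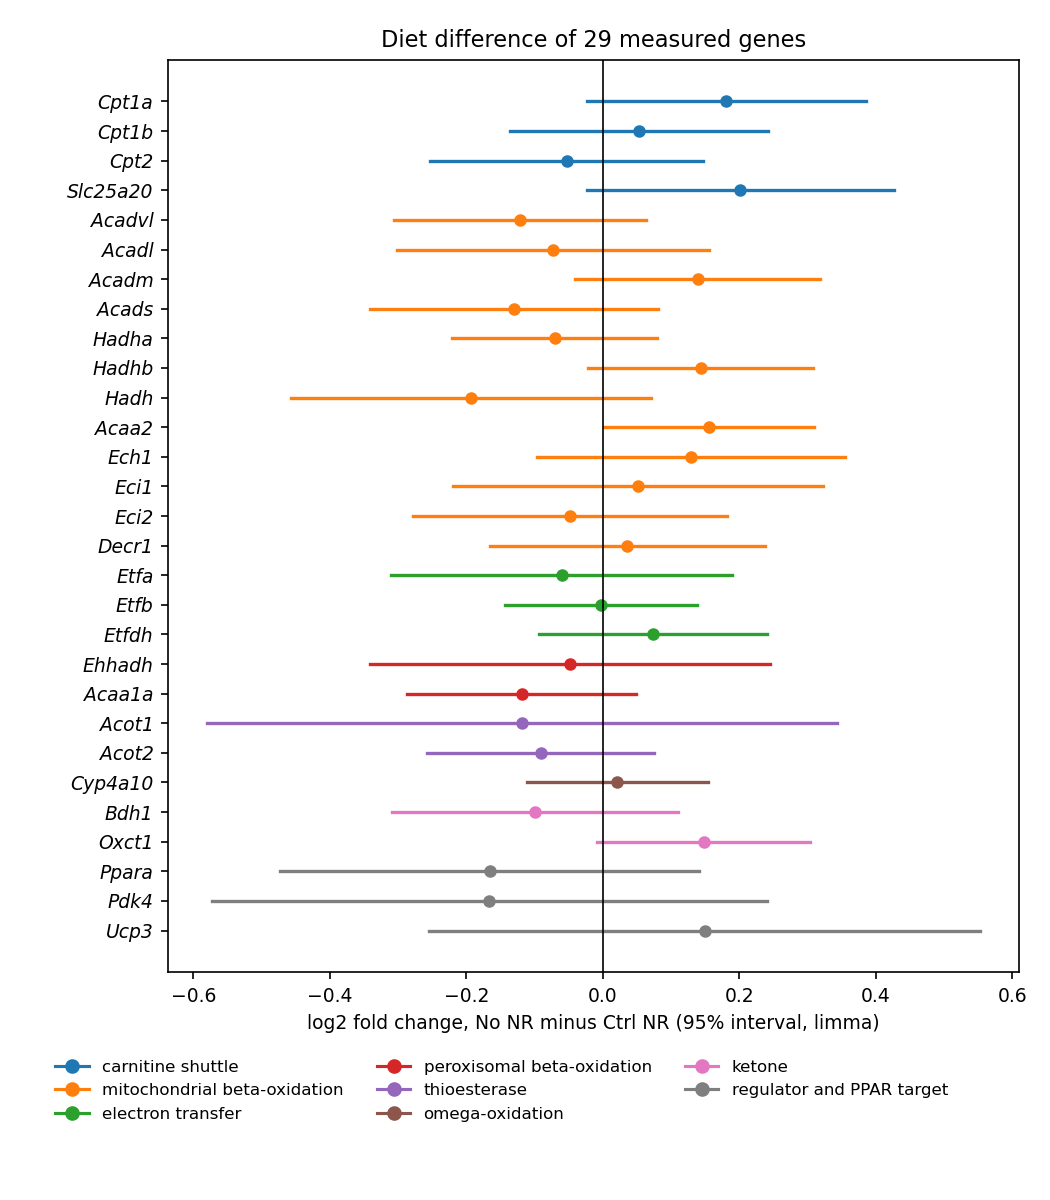
Difference between diets for the 29 measured genes, in log2 of the ratio to the pool (x axis, No NR minus Ctrl NR, 12 mice a diet), with points for limma's estimate and bars for its 95% interval, coloured by role. The points run from -0.19 to 0.20, and only the interval of Acaa2 does not include 0; under median centring 8 of the 13 points above 0 move below it.

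The carnitine shuttle had 3 of 4 genes above 0 and a median difference of 0.12 (0.017 with the mean of kept probes, 0.041 with median centring, 0.061 with the macrophage list as a covariate, 0.086 in the authors' value table). Cpt1a encodes the liver-type carnitine palmitoyltransferase that commits long-chain fatty acids to oxidation and is inhibited by malonyl-CoA. Its ratios ran from -0.55 to 0.36 (median 0.12) in Ctrl NR mice and from -0.24 to 0.43 (median 0.24) in No NR mice. The lowest mice of both diets lay below the pool and most lay above it, and the 2 lowest were Ctrl NR mice. The difference was 0.18 (SE 0.0994, adjusted p = 0.414), and it had the same sign on all 5 slides, with values of 0.092, 0.048, 0.18, 0.22 and 0.23; it was 0.044 with median centring and 0.016 with the mean of kept probes. Slc25a20, the carrier that moves acylcarnitines across the inner membrane, ran from -0.59 to 0.51 (median -0.068) in Ctrl NR mice and from -0.22 to 0.38 (median 0.16) in No NR mice. Ctrl NR mice spread over about the whole range, and the No NR mice lay within it. The difference was 0.20 (SE 0.110, adjusted p = 0.411). Cpt2, which turns acylcarnitine back into acyl-CoA inside the mitochondrion, ran from -0.42 to 0.48 (median -0.0090) in Ctrl NR mice and from -0.37 to 0.43 (median -0.026) in No NR mice, a difference of -0.053 (SE 0.0974, adjusted p = 0.835). Cpt1b, the muscle-type isoform, was well above background on 10 and 12 arrays of the diets, and its difference was 0.053 (SE 0.0920, adjusted p = 0.822).

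The 12 genes of mitochondrial beta-oxidation split evenly, 6 above and 6 below 0, with a median of -0.0061; with median centring all 12 lay below 0, with a median of -0.16. The first step of each cycle belongs to acyl-CoA dehydrogenases that prefer different chain lengths. Acadm, for medium chains, ran from -0.56 to 0.29 (median -0.24) in Ctrl NR mice and from -0.30 to 0.19 (median -0.055) in No NR mice. The lowest values belonged to Ctrl NR mice, and the groups overlapped over most of the range. Its difference was 0.14 (SE 0.0874, adjusted p = 0.481), and -0.061 with median centring. Acadvl, for very long chains, differed by -0.12 (SE 0.0900, adjusted p = 0.560). The value for Acadl, for long chains, was -0.073 (SE 0.112, adjusted p = 0.794). Acads, for short chains, differed by -0.13 (SE 0.103, adjusted p = 0.588). The medium-chain gene thus had the opposite sign to its 3 relatives under loess, and none of the 4 differences passed.

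The later steps of the cycle showed the same mixture. Hadha carries the hydratase and dehydrogenase activities of the trifunctional protein and ran from -0.36 to 0.20 (median -0.083) in Ctrl NR mice and from -0.61 to 0.0041 (median -0.13) in No NR mice. All No NR mice but 1 lay below the pool. Its difference was -0.071 (SE 0.0733, adjusted p = 0.684). Hadhb, the thiolase subunit of the same complex, ran from -0.33 to 0.29 (median -0.0038) in Ctrl NR mice and from -0.23 to 0.57 (median 0.12) in No NR mice. The highest mouse was No NR 118 at 0.57, which was also the lowest for Hadha at -0.61. The difference of Hadhb was 0.14 (SE 0.0803, adjusted p = 0.423), and 0.10 without that mouse. Hadh, a dehydrogenase for shorter chains, ran from -0.65 to 0.50 (median 0.17) in Ctrl NR mice and from -0.62 to 0.30 (median -0.12) in No NR mice and had the lowest estimate of all 29 genes, -0.19 (SE 0.128, adjusted p = 0.508). Acaa2, the thiolase that closes the cycle for medium chains, ran from -0.39 to 0.34 (median -0.13) in Ctrl NR mice and from -0.24 to 0.17 (median 0.065) in No NR mice. The 3 lowest mice were Ctrl NR mice and so was the highest. Its difference was 0.16 (SE 0.0750, adjusted p = 0.349), with a 95% interval of 0.0013 to 0.31 and an unadjusted p of 0.0483. On the 5 slides the difference of Acaa2 was 0.25, 0.057, 0.010, 0.13 and 0.27, always above 0, whereas it was -0.040 with median centring. Over the alternatives its adjusted p ranged from 0.135 to 0.9999.

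**Figure D2:**
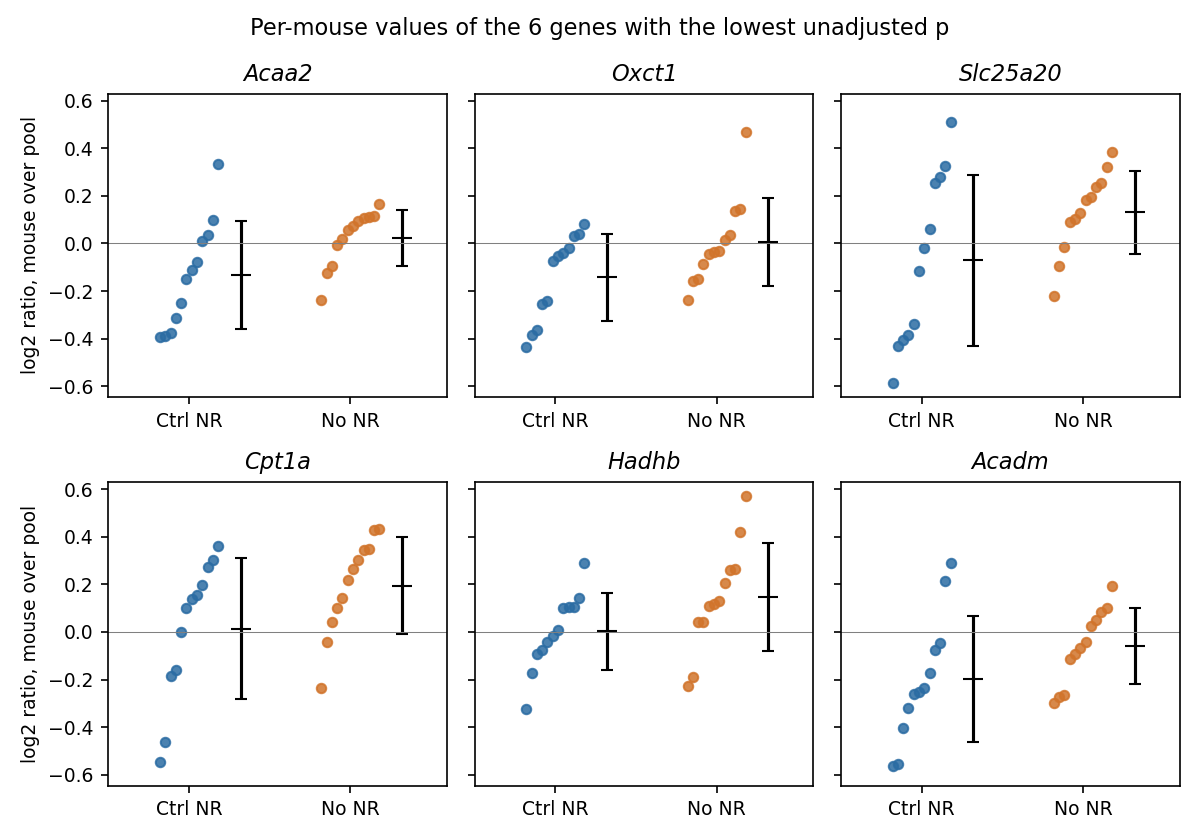
Ratio of mouse over pool in log2 (y axis) for the 6 members with the lowest unadjusted p, 1 point per mouse in rising order within Ctrl NR (blue, 12 mice) and No NR (orange, 12 mice), with the mean and SD in black. The diets overlap in every panel; the mean of Acaa2 is -0.13 with NR and 0.023 without it.

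Enzymes that prepare unsaturated fatty acids for the cycle were also divided. The isomerase gene Ech1 differed by 0.13 (SE 0.110, adjusted p = 0.613). Eci1, an enoyl-CoA isomerase, differed by 0.052 (SE 0.132, adjusted p = 0.885). Eci2, a related isomerase found in mitochondria and peroxisomes, had a value of -0.048 (SE 0.112, adjusted p = 0.871). Decr1, the dienoyl-CoA reductase, differed by 0.036 (SE 0.0984, adjusted p = 0.894). None of the 4 intervals excluded 0. In the electron transfer step, Etfa and Etfb encode both subunits of electron transfer flavoprotein and Etfdh its oxidoreductase. Etfa differed by -0.060 (SE 0.122, adjusted p = 0.850), Etfb by -0.0029 (SE 0.0685, adjusted p = 0.990) and Etfdh by 0.074 (SE 0.0814, adjusted p = 0.705). Etfb thus had nearly equal means of -0.0038 and -0.0067, with a 95% interval of -0.14 to 0.14. Over the 20 mitochondrial genes together (shuttle, beta-oxidation, electron transfer and Acot2), 10 were above and 10 below 0 with a median of 0.017; with median centring 3 were above and 17 below, with a median of -0.14.

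Peroxisomal beta-oxidation was represented by Ehhadh, the bifunctional enzyme of the pathway, and Acaa1a, its thiolase. Both lay below 0, with a median of -0.084 against 0.017 for the mitochondrial genes, and the gap between the classes was not tested. Ehhadh ran from -0.60 to 0.96 (median -0.051) in Ctrl NR mice and from -0.59 to 0.65 (median -0.10) in No NR mice. The highest mouse was Ctrl NR 77 at 0.96, and without it the difference went from -0.048 to 0.038. Acaa1a ran from -0.48 to 0.31 (median -0.089) in Ctrl NR mice and from -0.50 to 0.25 (median -0.23) in No NR mice, a difference of -0.12 (SE 0.0817, adjusted p = 0.525). Acyl-CoA thioesterases release free fatty acids from CoA, in the cytosol for Acot1 and in mitochondria for Acot2. Acot1 ran from -1.22 to 1.83 (median -0.50) in Ctrl NR mice and from -1.13 to -0.089 (median -0.38) in No NR mice. Only Ctrl NR 108 stood far above the pool, at 1.83, and the next Ctrl NR mouse lay at 0.20. The difference was -0.12 (SE 0.225, adjusted p = 0.841), and it was 0.078 without Ctrl NR 108. Acot2 ran from -0.39 to 0.26 (median 0.014) in Ctrl NR mice and from -0.51 to 0.27 (median -0.085) in No NR mice, a difference of -0.091 (SE 0.0813, adjusted p = 0.634). Acot1 and Acot2 are close paralogs, as are Acaa1a and Acaa1b and the Cyp4a genes, and binding of a probe to a paralog was not tested. The omega-hydroxylase gene Cyp4a10, a strong PPAR alpha target in liver, was well above background on only 5 and 6 arrays of the diets. Its difference of 0.021 (SE 0.0644, adjusted p = 0.903) therefore rests on signals near background, like the values of Bdh1.

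The ketone genes had 1 estimate on each side of 0 and a median of 0.024, which was -0.20 with the authors' processed signals and -0.058 with median centring. Bdh1, which interconverts acetoacetate and beta-hydroxybutyrate, passed background on 6 arrays of the Ctrl NR diet and 5 of the other and differed by -0.10 (SE 0.102, adjusted p = 0.680). Its estimate was -0.49 with the authors' processed signals and -0.21 in their value table, and without single mice it ran from -0.14 to -0.036. Oxct1, the enzyme that lets tissues use ketone bodies as fuel, was well above background on all arrays and ran from -0.44 to 0.080 (median -0.064) in Ctrl NR mice and from -0.24 to 0.47 (median -0.033) in No NR mice. The highest mouse was No NR 118, and the 3 lowest were Ctrl NR mice. Its difference was 0.15 (SE 0.0759, adjusted p = 0.381), with a 95% interval of -0.0081 to 0.30. By slide the values of Oxct1 were 0.44, 0.0080, 0.045, 0.27 and 0.15, all above 0, but the estimate was -0.038 with median centring.

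Among the regulators, Ppara encodes PPAR alpha, Pdk4 the kinase that switches off pyruvate dehydrogenase in fasting, and Ucp3 a mitochondrial carrier that responds to fatty acids. Ppara ran from -0.86 to 0.55 (median -0.19) in Ctrl NR mice and from -0.90 to 0.35 (median -0.28) in No NR mice. Both diets held mice well below the pool, and the difference was -0.17 (SE 0.150, adjusted p = 0.638). Pdk4 ran from -1.13 to 1.01 (median -0.27) in Ctrl NR mice and from -1.18 to 0.16 (median -0.42) in No NR mice. Ctrl NR 104 stood alone at 1.01. The difference of Pdk4 was -0.17 (SE 0.198, adjusted p = 0.728) and shrank to -0.050 without that mouse. Ucp3 ran from -0.80 to 0.49 (median -0.012) in Ctrl NR mice and from -0.64 to 1.64 (median 0.18) in No NR mice. Here No NR 114 stood alone at 1.64. The difference was 0.15 (SE 0.197, adjusted p = 0.756), and 0.0049 without No NR 114.

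Compared within slides, the members' differences had mixed signs. The median difference over the 29 genes was 0.10, 0.044, 0.045, -0.043 and 0.018 on slides 1 to 5, with 19, 20, 18, 10 and 16 genes above 0. Slide 1 held 1 No NR mouse, so its values rest on that animal. Cpt1a, Acaa2 and Oxct1 had the same sign on all 5 slides, and the other 26 genes did not. How many of all features did so was not counted, so this agreement is not read as support for the 3 differences.

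Further genes of these pathways were read from the same fit, and 0 of them passed an adjusted p of 0.05. The list for mitochondrial fatty acid oxidation held 23 other measured genes, and where in the cell each product acts was not checked. Of these, 9 lay above and 14 below 0 (median -0.045), with 2 above and 4 below at an unadjusted p under 0.05 (6.87% and 7.25% of all features). The lowest p values belonged to Pccb, a subunit of propionyl-CoA carboxylase, at -0.34 (SE 0.0938, adjusted p = 0.105), and to the dehydrogenase genes Acad12 at -0.30 (SE 0.0906, adjusted p = 0.139) and Acad9 at 0.20 (SE 0.0810, adjusted p = 0.265). Of 27 other peroxisomal genes, 8 lay above and 19 below 0 (median -0.069), with 1 in each direction at that level. Pex14, part of the docking site for protein import into peroxisomes, differed by -0.32 (SE 0.0746, adjusted p = 0.0764). Its ratios ran from -0.18 to 0.52 (median 0.15) in Ctrl NR mice and from -0.38 to 0.071 (median -0.19) in No NR mice, overlapping ranges with the No NR mice mostly below the pool. Crot, which makes medium-chain acylcarnitines in peroxisomes, differed by 0.21 (SE 0.0902, adjusted p = 0.278), and the thioesterase gene Acot8 by -0.15 (SE 0.0797, adjusted p = 0.390).

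Of 11 other ketone genes, 5 lay above and 6 below 0 (median -0.024) and 0 reached an unadjusted p of 0.05. The lowest p values were those of Acat2, a cytosolic thiolase, at 0.17 (SE 0.102, adjusted p = 0.449), of Bdh2 at 0.18 (SE 0.148, adjusted p = 0.599) and of Aacs, which activates acetoacetate for lipid synthesis, at -0.26 (SE 0.213, adjusted p = 0.601). Of 28 genes of PPAR signalling and the fasting response, 10 lay above and 18 below 0 (median -0.10), with 1 above and 6 below at an unadjusted p under 0.05 (6.87% and 7.25% of all features). Rxrb, a retinoid X receptor that pairs with PPAR proteins, ran from -0.48 to 0.15 (median -0.11) in Ctrl NR mice and from -0.57 to -0.21 (median -0.43) in No NR mice. The No NR mice lay all below the pool. Its difference was -0.28 (SE 0.0616, adjusted p = 0.0764). Ppard, the PPAR delta gene, ran from -0.29 to 0.29 (median -0.056) in Ctrl NR mice and from -0.54 to -0.093 (median -0.37) in No NR mice, again with all No NR mice below the pool. Its difference was -0.28 (SE 0.0658, adjusted p = 0.0764). Esrra, the estrogen-related receptor of oxidative genes, differed by -0.21 (SE 0.0707, adjusted p = 0.183). Each of these 3 receptor genes was below 0 on all 5 slides and under all 38 alternatives, some of which leave the estimate itself unchanged. The 3 genes were named for the lowest p of their list in this same fit, so the stable sign is no separate support.

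The adjusted p of some of these genes was under 0.05 when single Ctrl NR mice were left out. For Rxrb it was 0.0374 without Ctrl NR 117, 0.0465 without 104, 0.0290 without 68 and 0.0352 without 77. For Ppard it was 0.0374 without 117 and 0.0349 without 68, and for Pex14 0.0362 and 0.0318. Pccb passed without 117 (0.0492). With arrays weighted by quality, Rxrb (0.0261), Pex14 (0.0269), Ppard (0.0365), Pccb (0.0394) and Acad12 (0.0448) passed. With the adipocyte list as a covariate Rxrb (0.0350), Ppard (0.0380) and Pex14 (0.0418) passed. None of the 29 members passed under any of these settings. Of all 21051 features, 220 passed without Ctrl NR 117, 80 without 104, 227 without 68 and 9 without 77. With array weights 205 passed, and with the adipocyte covariate 146. The genes named here were those with the lowest p of their lists in the same data, so their passing is no separate support. Whether it is particular to these pathways was not tested. The highest adjusted p of these genes over the alternatives was 0.9999, with median centring.

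Between mice of the same diet the SD of the members ran from 0.12 (Acaa2, No NR) to 0.79 (Acot1, Ctrl NR), and for many members this variation ran along with markers of 2 cell types. The mean of 29 macrophage genes ran from -1.50 to 0.63 in Ctrl NR mice and from -0.96 to 0.57 in No NR mice, and the mean of 22 adipocyte genes from -0.68 to 0.65 in Ctrl NR mice and from -0.58 to 0.64 in No NR mice. Mice with high macrophage values had low adipocyte values under loess (r = -0.96 and rho = -0.97 over 24 mice, permutation p = 1e-05, the smallest the resamples can give; r was -0.95 in the authors' processed signals and -0.94 in their value table), but not with median centring (r = 0.34). In the diet comparison 28 of 29 macrophage genes lay above 0 without NR (24 of 29 with median centring), 3 at an unadjusted p under 0.05. Of all features 47.6% lay above 0 and 6.87% were higher at that level. The mean of the macrophage list was -0.40 (SD 0.72) in Ctrl NR mice and -0.12 (SD 0.59) in No NR mice. That gap was not tested. It is smaller than either SD between mice, but these are wider than the error of a difference between group means. Of the adipocyte genes 16 of 22 lay below 0, and 0 reached an unadjusted p under 0.05 (52.4% of all features lay below 0 and 7.25% were lower at that level). Adgre1, the F4/80 antigen, differed by 0.44 (SE 0.409, adjusted p = 0.644), and Csf1r and Itgam by 0.22 (SE 0.194, adjusted p = 0.636) and 0.21 (SE 0.0749, adjusted p = 0.217). Adipoq, Lep and Retn differed by 0.011 (SE 0.209, adjusted p = 0.987), 0.26 (SE 0.152, adjusted p = 0.453) and 0.39 (SE 0.310, adjusted p = 0.589).

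Of 17 endothelial genes 13 lay below 0, 6 of them at an unadjusted p under 0.05 (of all features 52.4% lay below 0 and 7.25% were lower at that level), with Pecam1 at 0.027, Cdh5 at -0.33 and Kdr at -0.31; their mean ran from -0.34 to 0.26 in Ctrl NR mice and from -0.40 to 0.10 in No NR mice. The brown or beige adipocyte list had 8 of 10 genes below 0, 2 at that level, with Ucp1 at 0.068, Cidea at -0.072 and Cox7a1 at -0.16. The T and B lymphocyte list had 7 of 9 below 0, 2 at that level, with Cd3d at 0.037, Cd3e at -0.17 and Cd3g at -0.055. All 8 mesothelial genes lay below 0, 0 at that level, with Msln at -0.25, Upk3b at -0.070 and Upk1b at -0.017. Of the skeletal muscle list 4 of 14 genes were measured, 2 on each side of 0, with Acta1 at -0.38, Tnnc2 at -0.076 and Tnni2 at 0.56. Of the epididymis and testis list 3 of 4 measured genes lay below 0, with Rnase10 at 0.0030, Prm1 at -0.47 and Prm2 at -0.31. No gene of these lists passed an adjusted p of 0.05, and the part of these cell types in the members' differences was not tested beyond the 2 covariate fits.

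**Figure D3:**
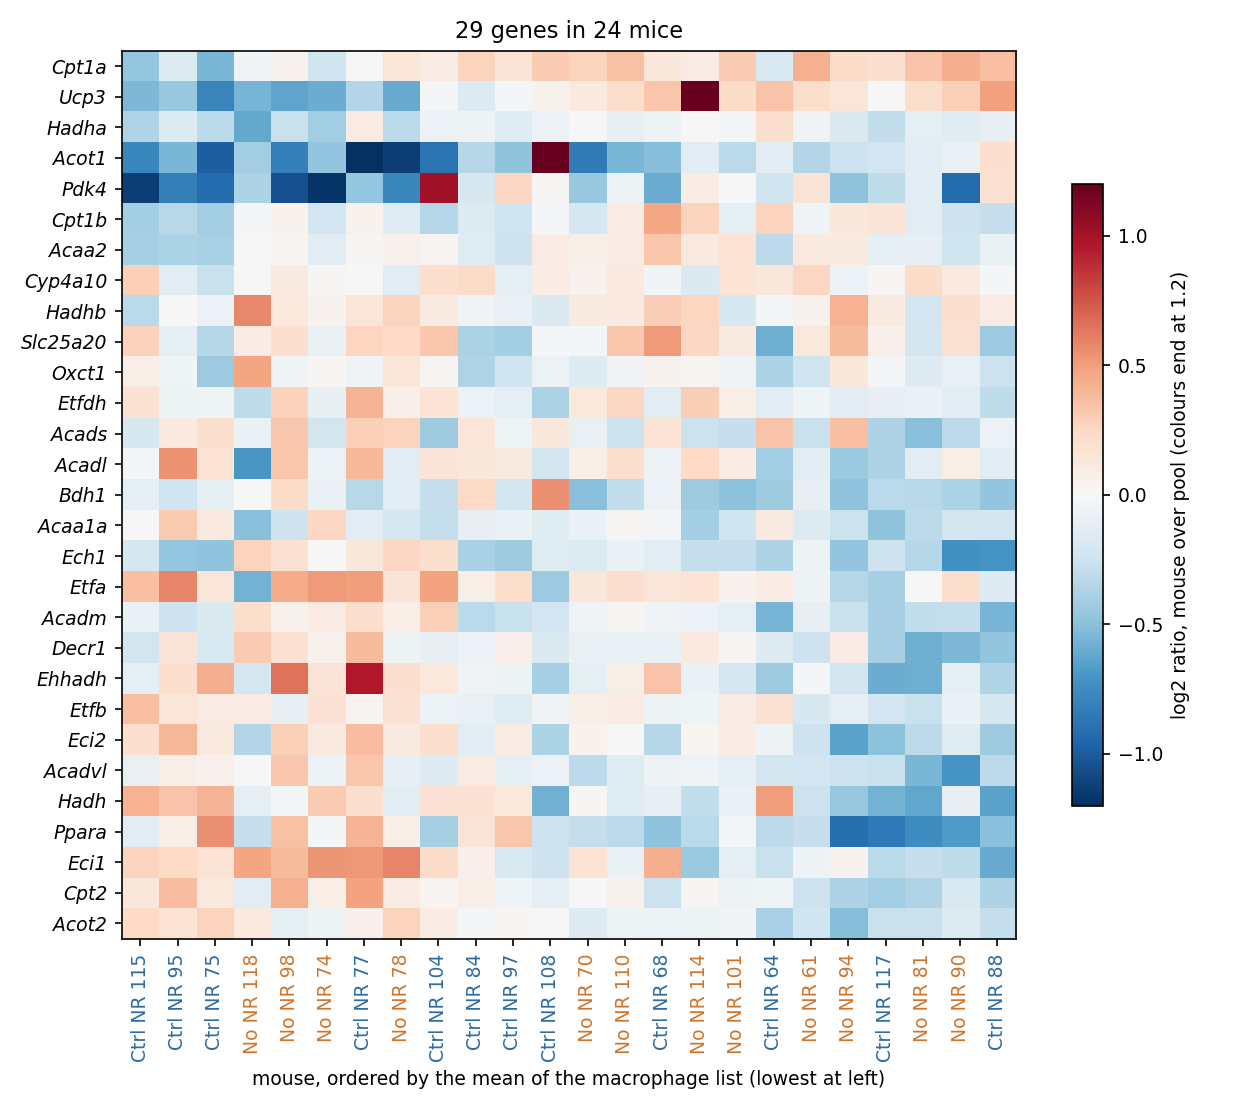
Log2 ratio of mouse over pool (colour) for the 29 measured genes (rows, ordered by their correlation with the macrophage list) in 24 mice (columns, from the lowest to the highest mean of the macrophage list; labels blue for Ctrl NR, orange for No NR). Upper rows turn from blue to red towards the right and lower rows from red to blue, and the 3 mice with the lowest macrophage mean are Ctrl NR mice.

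Each of the 29 genes was related to both list means over the 24 mice, 58 relations in all, with permutation tests of 100000 resamples and Benjamini-Hochberg adjustment. With the macrophage list 18 genes passed an adjusted p of 0.05, 6 with a positive and 12 with a negative r. With the adipocyte list 18 passed, 13 positive and 5 negative. The list means ran against each other under loess (r = -0.96), so the counts for both lists are not separate results. The share of all features that would pass was not computed, so these counts are not read as particular to the members. Positive with the macrophage list were Cpt1a (r = 0.79, rho = 0.75), Ucp3 (r = 0.76, rho = 0.83), Hadha (r = 0.52, rho = 0.40), Acot1 (r = 0.48, rho = 0.71), Pdk4 (r = 0.47, rho = 0.47) and Cpt1b (r = 0.45, rho = 0.37). Most negative were Acot2 (r = -0.80, rho = -0.83), Cpt2 (r = -0.75, rho = -0.82), Eci1 (r = -0.74, rho = -0.77) and Ppara (r = -0.69, rho = -0.75). The adjusted permutation p was 9.67e-05 for Cpt1a, Ucp3 and Acot2, from the smallest unadjusted p that the resamples can give, and 0.0454 for Cpt1b. By rank, Hadha and Cpt1b did not pass (adjusted p of rho 0.0759 and 0.101).

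These signs hold for the loess ratios and the authors' own scalings and not for median centring. With arrays centred on their medians, 25 genes passed as positive and 0 as negative with the macrophage list, and 27 and 0 with the adipocyte list. Acot2 then had an r of 0.32 with the macrophage list in place of -0.80. In the authors' processed signals 7 genes passed as positive and 16 as negative, and in the table they deposited the counts were 6 and 10. At the upper end of the order stood, in all scalings, Cpt1a and Ucp3, at 0.91 and 0.92 with median centring. Which genes were negative with the macrophage list therefore depended on the scaling. The probes used for Cpt1a and Ucp3 were positive with that list in every scaling run. So were those of Hadha, Acot1, Pdk4, Acaa2 and Cpt1b, and that of Cyp4a10 where it was measured. A second Ucp3 probe went the other way under loess, with r = -0.84 with the macrophage list. With the adipocyte list Cpt1a went from r = -0.72 under loess to 0.64 with median centring, and Ucp3 from -0.75 to 0.42.

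**Figure D4:**
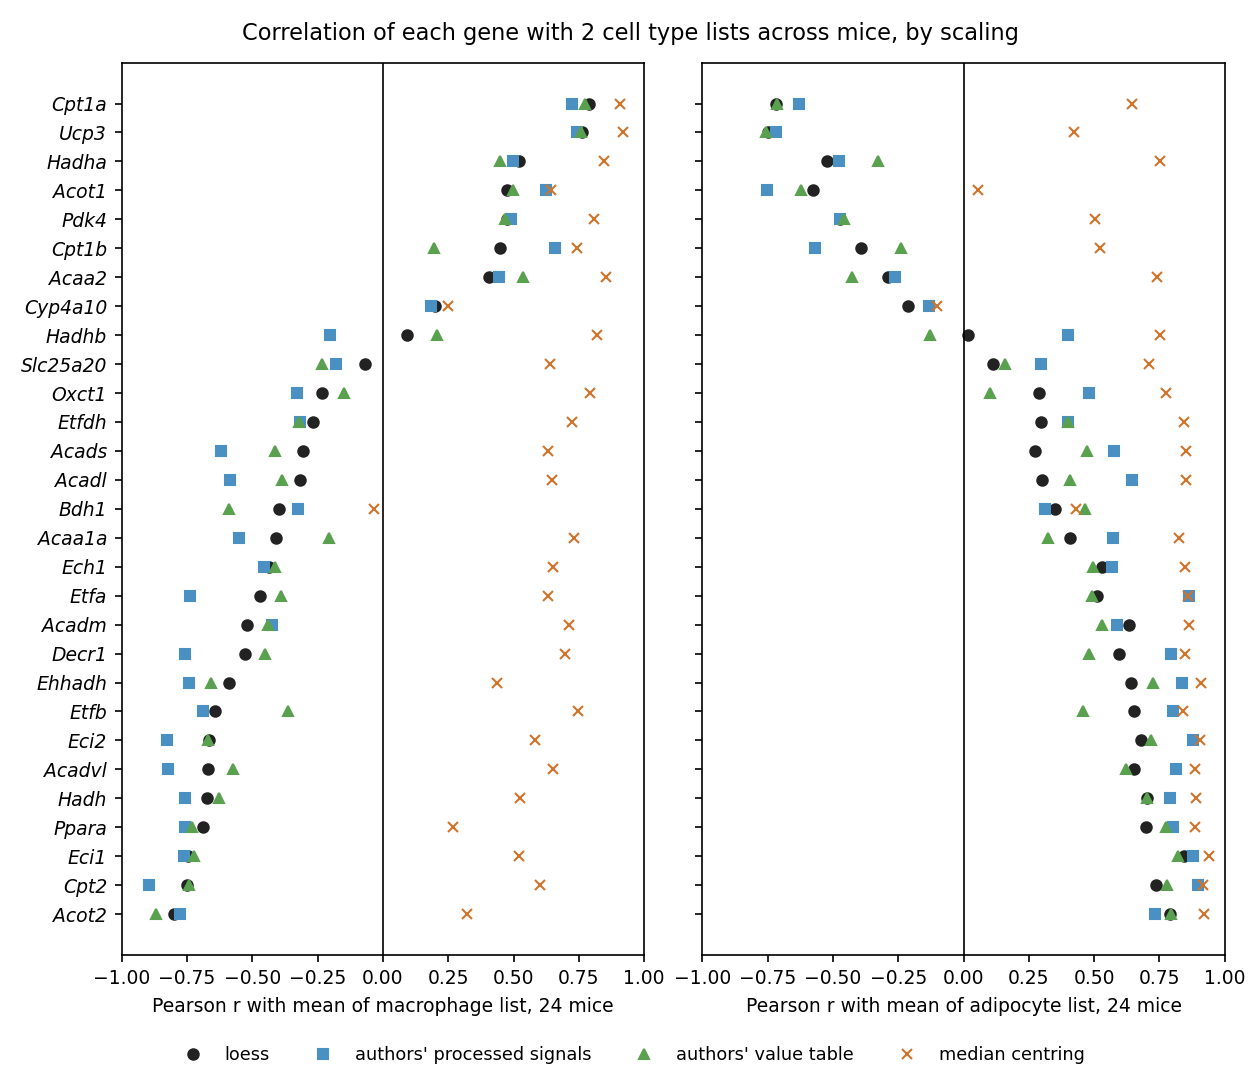
Pearson r over 24 mice of each measured gene with the mean of the macrophage list (left) and of the adipocyte list (right) under 4 scalings, marked by colour and shape; Cyp4a10 has no point for the value table. Under loess r runs from -0.80 to 0.79 on the left, whereas with median centring (crosses) all but 1 gene lie above 0 on each side.

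The relations were computed again within each diet and within slides. Cpt1a had an r of 0.76 with the macrophage list in Ctrl NR mice and 0.83 in No NR mice, 0.79 with slide means removed and 0.72 without the 2 mice farthest from the median. For Acot2 these values were -0.91, -0.63, -0.85 and -0.76, and for Eci1 -0.69, -0.90, -0.79 and -0.78. The sign was the same in both diets for 25 of 29 genes with each list. Acadl was among those that differed, with -0.72 with NR and 0.20 without it, as was Hadhb with 0.46 and -0.37; the gap between diets was not tested. Without the 2 farthest mice 4 positive and 12 negative genes passed, and with slide means removed 5 and 15. With the macrophage mean as a covariate in the diet comparison, 0 members passed, the lowest adjusted p was 0.202, and the difference of Cpt1a went from 0.18 to 0.10.

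For 6 pairs chosen by biochemistry, 0 had an r past an adjusted p of 0.05 over all 24 mice in the loess values (permutation tests, 6 relations). Without the 2 mice farthest from the median of the first-named gene, 3 passed. These were Etfa with Etfb at r = 0.52, Ehhadh with Acaa1a at 0.53 and Acot1 with Acot2 at -0.70. Hadha and Hadhb, subunits of 1 complex that share the promoter stretch printed earlier, had r = -0.23 and rho = -0.066. Their r was 0.41 with NR, -0.54 without it and 0.079 without the 2 farthest mice. Each was read by 1 probe, that of Hadha much dimmer (mean log2 Cy5 of 8.76 against 12.82), and which transcripts these probes read was not tested. Etfa and Etfb had r = 0.36, Cpt1a and Cpt1b 0.25, Ehhadh and Acaa1a 0.33, and Bdh1 and Oxct1 0.045. Over all 24 mice the adjusted permutation p values of r ran from 0.227 to 0.828. The neighbouring genes Acot1 and Acot2 had r = -0.35 (adjusted p = 0.227) but rho = -0.63 (adjusted p = 0.00726). Without the 2 farthest mice, which include Ctrl NR 108, their r was -0.70. With median centring all 6 pairs were positive, Hadha and Hadhb at 0.94 and Acot1 and Acot2 at 0.13. A pair of Cyp4a10 and Cyp4a14 could not be formed.

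**Figure D5:**
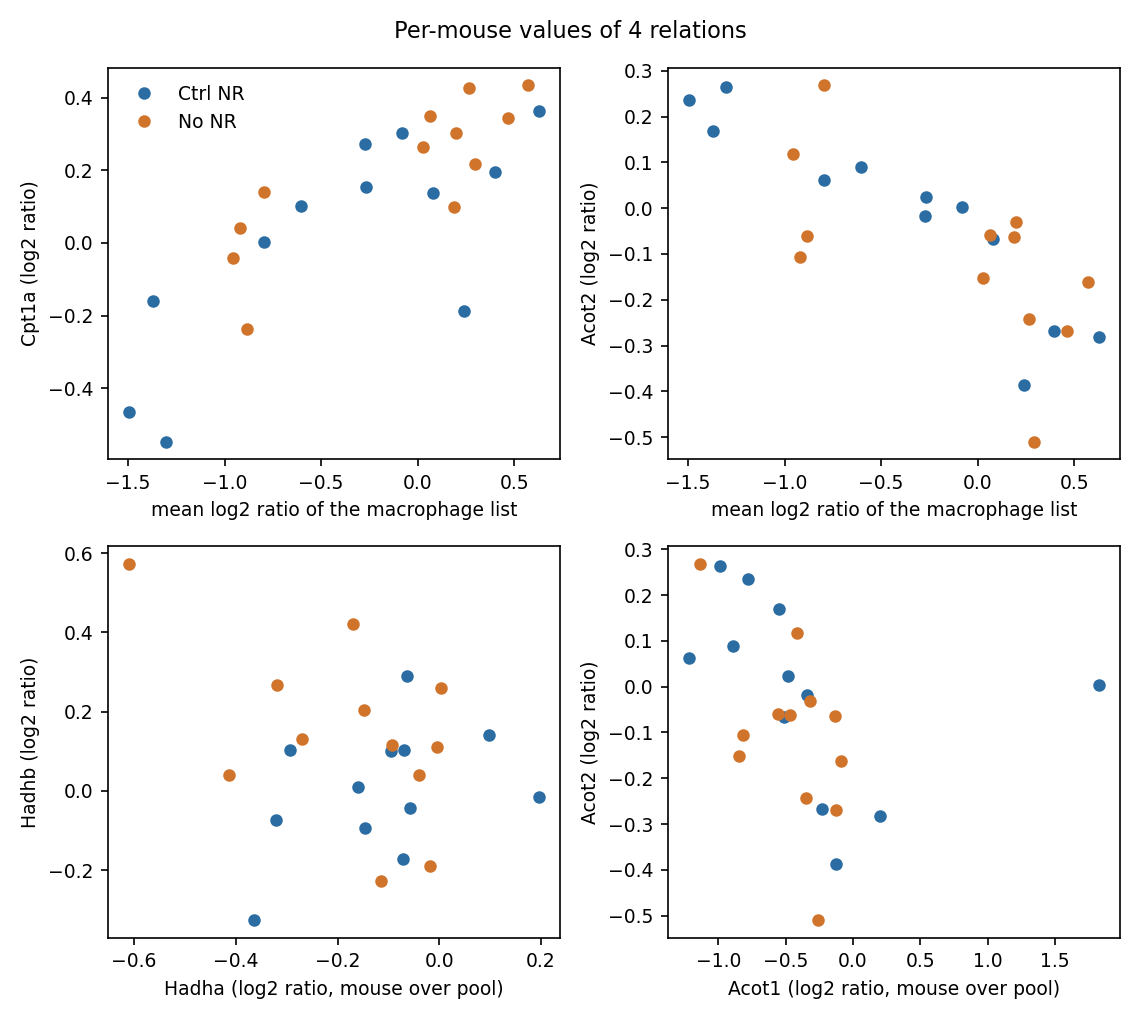
Per-mouse log2 ratios over the pool (24 points, Ctrl NR blue and No NR orange): Cpt1a and Acot2 against the mean of the macrophage list (top), and the pairs Hadha with Hadhb and Acot1 with Acot2 (bottom). Cpt1a is positively and Acot2 negatively related to the macrophage list (r = 0.79 and -0.80 under loess, 0.91 and 0.32 with median centring), the trifunctional subunits show r = -0.23, and Ctrl NR 108 lies apart at an Acot1 value of 1.83.

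Several members had more than 1 probe above background, and the brighter one stands for the gene. The probes of Ucp3 went against each other. The probe used followed the macrophage list (r = 0.76), whereas its other probe ran against it (r = -0.84, adjusted permutation p = 4.67e-05) and along the adipocyte list (r = 0.87). The 2 probes had r = -0.55 with each other over 24 mice (adjusted permutation p = 0.0139), and their diet differences were 0.15 and -0.10. Ucp2, the neighbour of Ucp3 on chromosome 7 and a gene known from macrophages, had r = 0.77 with the probe used and -0.73 with the other, and 0.91 with the macrophage list. Without the 2 farthest mice the first value was 0.91. The values given for Ucp3 are therefore uncertain as to the transcript they read. These relations, 28 in all, were chosen after the values were seen.

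The probes of Etfa had little relation to each other (r = 0.020), and the dimmer one differed between diets by 0.35 at an unadjusted p of 0.0152, where the probe used gave -0.060. Cpt1a's dimmer probe gave -0.15 in place of 0.18 and had r = 0.25 with it; its r with the macrophage list was 0.47. For Ppara all 3 probes lay below 0 and the others had r = 0.73 and 0.86 with the probe used. The second probes of Cpt1b, Cpt2 and Decr1 had r = 0.54, 0.44 and 0.26 with theirs, and diet differences of -0.019, 0.081 and -0.0035.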

How the data were processed

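Epididymal fat RNA of 24 mice (12 per diet) was measured on 24 2-colour Agilent arrays of 62976 spots, all in the same dye orientation, against 1 pool. Spot intensity in the deposited files is linear and comes, per the submitters' processing notes, from Agilent Feature Extraction 10.7.3.1, with flags per spot. Median spot signals were used, since the files hold no mean signals, together with the median background. The authors' deposited processed intensities and their deposited table of log2 values, whose normalization is not given in the sources used here, served as alternatives. The table's scale is that of log2 Cy5 signal (r at least 0.99 with the array's own signal, column median 8.04).

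R 4.3.3 with limma 3.58.1 did the background correction (normexp, offset 50) and the loess within arrays, in which control spots had weight 0. Control and outlier spots were left out and spots averaged to 55681 probes. The filter kept 24769 probes with Cy5 flagged well above background on 6 or more of the 12 arrays of a diet. Accessions named 27235 probes through RefSeq (GRCm38.p6) and 28446 had no name. The file headers name mm9, so coordinates are given only for RefSeq promoters. The brightest kept probe stood for a gene. The diet effect was fitted by lmFit and eBayes without other terms and adjusted by Benjamini-Hochberg over all 21051 features; the median SE was 0.0811. Correlations used permutation tests (Python 3.11.15, scipy 1.17.1). The fit was tested on simulated data (200 features changed, 5 runs). The alternatives were 14 other settings and 24 fits without 1 mouse. The members and gene lists were chosen with earlier results of these data known. Named are all members, the 3 lowest p of each further pathway list, and the first 3 measured genes of each cell type list.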

Additional observations from a re-analysis of the deposited data

How the results depend on the processing

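Under all 38 alternatives 0 of the members passed an adjusted p of 0.05, the lowest being 0.135 without Ctrl NR 68. Over all features, against 0 in the values reported, 205 were called with array weights, 70 with the macrophage and 146 with the adipocyte covariate, 3 with a filter on all arrays and 3 with eBayes trend and robust. Without single mice the count was 227 (Ctrl NR 68), 220 (117), 80 (104), 34 (75) and 9 (77), 3 (No NR 78) and 2 (118), and 0 without any other. The median difference of the members, -0.048 in the values reported, ran from -0.12 with median centring to 0.014 with the mean of kept probes. Each move was below the SD of the member median between single mice, 0.12. That SD is wider than the error of a difference between group means, so it does not show the median to be stable. At an unadjusted p under 0.05 the count of members was 1 in the values reported, 0 with median centring, the value table and a filter on all 24 arrays, and 2 without background correction, with array weights and with either cell type list as a covariate (the adipocyte covariate was added after the data were seen). Leaving out 1 mouse gave 0 to 4: 4 without Ctrl NR 104, Ctrl NR 68 or No NR 81, 3 without Ctrl NR 77 or No NR 74, 2 without Ctrl NR 115, 108 or 88, and 0 without Ctrl NR 117, 64, 75, 84, 95 or 97 or No NR 118, 110, 114, 78, 94 or 98.

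Differences that changed sign were, with median centring, Acadm -0.061, Hadhb -0.041, Acaa2 -0.040, Ech1 -0.038, Eci1 -0.12, Decr1 -0.17, Etfdh -0.066 and Oxct1 -0.038; with the authors' processed signals, Acadl 0.017, Decr1 -0.058 and Etfa 0.0024; in the value table, Cpt1b -0.0058 and Decr1 -0.026; with the mean of kept probes, Cpt2 0.014 and Etfa 0.15; with array weights, Decr1 -0.022 and Etfb 0.029; with the macrophage covariate, Cpt2 0.026, Eci2 0.034, Etfa 0.0028, Etfb 0.043, Ehhadh 0.047 and Ucp3 -0.021; and with the adipocyte covariate, Etfb 0.023 and Ehhadh 0.010. Leaving out 1 mouse turned the sign of Etfb (-0.023 to 0.031), Ehhadh (-0.11 to 0.038), Acot1 (-0.20 to 0.078), Cyp4a10 (-0.0057 to 0.045), Eci1 (-0.0054 to 0.10) and Eci2 (-0.090 to 0.0022). The causes were not tested. The other settings changed no sign. Without single mice the differences that kept their sign but moved by over 1.5 times included Cpt2 (-0.10 to -0.0089, without No NR 98 and Ctrl NR 77), Acadl (-0.11 to -0.014, Ctrl NR 64 and No NR 118), Etfa (-0.11 to -0.0018, Ctrl NR 108 and No NR 118), Hadha (-0.094 to -0.032, Ctrl NR 115 and No NR 118) and Decr1 (0.0024 to 0.083, No NR 118 and 81). Members correlated with the macrophage list numbered 10 in Ctrl NR mice alone and 14 in No NR mice alone against 18 in all. Partner pairs past the threshold numbered 3 without the 2 farthest mice, 4 with median centring and 3 with the authors' processed signals, against 0. No paired analysis was possible because the diets share no animal number. The number of arrays limits the precision, and Bdh1, Cyp4a10 and Cpt1b were near background.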
